A study of Homo sapiens with 6 samples.

Results

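The ARP2/3 complex is the actin nucleator that starts a new filament from the side of an existing one. Its subunit genes were taken by symbol: ACTR2, ACTR3, ARPC1A, ARPC1B, ARPC2, ARPC3, ARPC4, ARPC5 and ARPC5L, which are 9 of 12180 genes and, through their transcripts, 26 of 33090 transcripts in the deposited tables. RNA-seq had been performed in TE1 cells (TE-1 in the labels), a cell line derived from a human esophageal squamous cell carcinoma (ESCC), to look for genes downstream of FGL1, a secreted fibrinogen-like protein. There were 3 control libraries (NC) and 3 libraries of cells that overexpressed FGL1 (FGL1-OE). The labels give the control genotype as WT, while the study's methods describe NC vectors with random nonsense sequences. Those methods also describe lentiviral infection of ESCC cells and puromycin selection of stable lines with modified FGL1, without saying whether the NC cells were selected. The gene values do not separate vector-derived from endogenous FGL1. No source states whether the 3 libraries of a group came from separate cultures, so every p-value below measures only the spread between these libraries, which may be technical.

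As background, the complex holds the actin-related proteins ARP2 (ACTR2) and ARP3 (ACTR3), which form the start of the daughter filament, and the subunits ARPC1 to ARPC5. ARPC2 and ARPC4 form the backbone that grips the mother filament, ARPC3 links to ARP3, ARPC1 is a beta-propeller protein at the branch, and ARPC5 ties ARPC1 to the core. ARPC1 and ARPC5 each come from alternative genes, ARPC1A or ARPC1B and ARPC5 or ARPC5L, so that a cell can assemble different versions of the complex. Branched networks made by ARP2/3 push the edge of lamellipodia in migrating cells, after activation by the WAVE and WASP families.

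Several subunit genes also have transcripts that overlap in sequence to different degrees. All 26 listed transcripts were found by identifier in GENCODE on GRCh38, and 2 coding differences between them are shown. The stretches shown are a small part of what differs between these transcripts. ARPC5-202 has 5612 exonic bases that ARPC5-201 lacks, and ACTR3-201 has 6152 that ACTR3-203 lacks. ARPC5-201 and ARPC5-202 are alike in coding sequence except for 9 bases at the start of the second exon (chr1:183633155-183633163, minus strand, GRCh38), present in ARPC5-201 only and in frame. Capitals mark these bases, and the flanking 30 bases on each side are coding in both transcripts.
ARPC5-201: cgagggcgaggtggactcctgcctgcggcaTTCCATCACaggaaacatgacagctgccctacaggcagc
ARPC5-202: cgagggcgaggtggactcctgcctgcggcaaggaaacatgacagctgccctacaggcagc
ACTR3-203 is a short transcript of 566 bases and 4 exons, against 6718 bases and 12 exons in ACTR3-201. Its coding part is 252 bases against 1254, and 1002 coding bases are in ACTR3-201 only. It skips the 56-base second exon of ACTR3-201 (chr2:113913172-113913227, plus strand, GRCh38). That exon is in capitals below, between the last 20 coding bases before it and the 20 bases after it.
ACTR3-201: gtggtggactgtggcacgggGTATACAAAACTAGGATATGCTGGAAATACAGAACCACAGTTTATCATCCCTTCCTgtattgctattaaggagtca

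Values are in FPKM, fragments per kilobase of transcript scaled to the mapped fragments of the library. The labels held for FGL1 itself: NC 1 to NC 3 read 0.0202, 0 and 0.106 FPKM, and FGL1-OE 1 to FGL1-OE 3 read 33.5, 39.3 and 39.9 FPKM. It was the single gene with an adjusted p under 0.05 among 12017 tested (0.00832%; limma with Benjamini-Hochberg adjustment). Epithelial markers of TE1 were present, with KRT6A at 108 to 197 FPKM and EPCAM at 90.5 to 122 FPKM, whereas KRT14 and SOX2 were not listed and TP63 was at 0.299 to 0.779 FPKM. PTPRC, CD3E, PECAM1 and DCN, which mark leukocytes, T cells, endothelium and fibroblasts, were not listed either, although 3 of the 8 markers of other cell types were, among them COL1A1 at 1.42 to 5.55 FPKM and CD68 at 2.25 to 5.73 FPKM. KRT6A was at 160.3, 108 and 139 FPKM in NC, and in FGL1-OE at 197, 183 and 192 FPKM, without overlap, and its part in the subunit values was not tested. The groups of the other 7 listed squamous markers overlapped. Among them, the log2 difference of KRT17 was 0.45, and those of KRT13 and KRT5 were -0.27 and -0.06. Those of DSG3, DSC3 and EPCAM were 0.02, 0.07 and 0.08, and TP63 was too low to be tested. In RNA from whole cultures, fewer cells of a kind and less RNA per cell cannot be told apart. The NC libraries stood further apart from each other (Pearson's r over genes on the log2 scale 0.885 to 0.964) than the FGL1-OE libraries (0.981 to 0.986), with the lowest value between NC 1 and NC 2. The subunit genes followed this. Their median SD on the log2(FPKM + 1) scale was 0.29 in NC and 0.12 in FGL1-OE, beside 0.31 and 0.12 over all genes tested. By Pearson's r, NC 2 was closer to each FGL1-OE library (0.955 to 0.971) than to NC 1 (0.885) or NC 3 (0.950). NC 3 was also closer to each FGL1-OE library (0.978 to 0.982) than to NC 1 (0.964) or NC 2. Only NC 1 correlated best with a library of its own group, NC 3.

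All 9 subunit genes were expressed, and their levels spanned an order from ARPC1A at the top to ACTR3 at the bottom. ARPC1A averaged 115 FPKM over the 6 libraries and ACTR3 averaged 11.95 FPKM. Between them stood ARPC3 (65.6 FPKM), ARPC4 (58.3 FPKM), ACTR2 (54.4 FPKM), ARPC5L (42.6 FPKM), ARPC1B (34.6 FPKM), ARPC2 (26.6 FPKM) and ARPC5 (18.5 FPKM). Of the 8 neighbouring pairs in this order, the gap was larger than either gene's SD over the 6 libraries only for ARPC1A over ARPC3, which held in 6 of 6 libraries, and for ACTR2 over ARPC5L, which held in 5 of 6. The order also depended on the table, because the gene FPKM was not the sum of the FPKM of its listed transcripts. By that sum ARPC3 came first at 186 FPKM and ARPC1A second at 151 FPKM. Summed over the 9 genes, the gene values were 417 ± 14.6 FPKM in NC and 439 ± 30.3 FPKM in FGL1-OE (SD, n = 3).

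**Figure D1:**
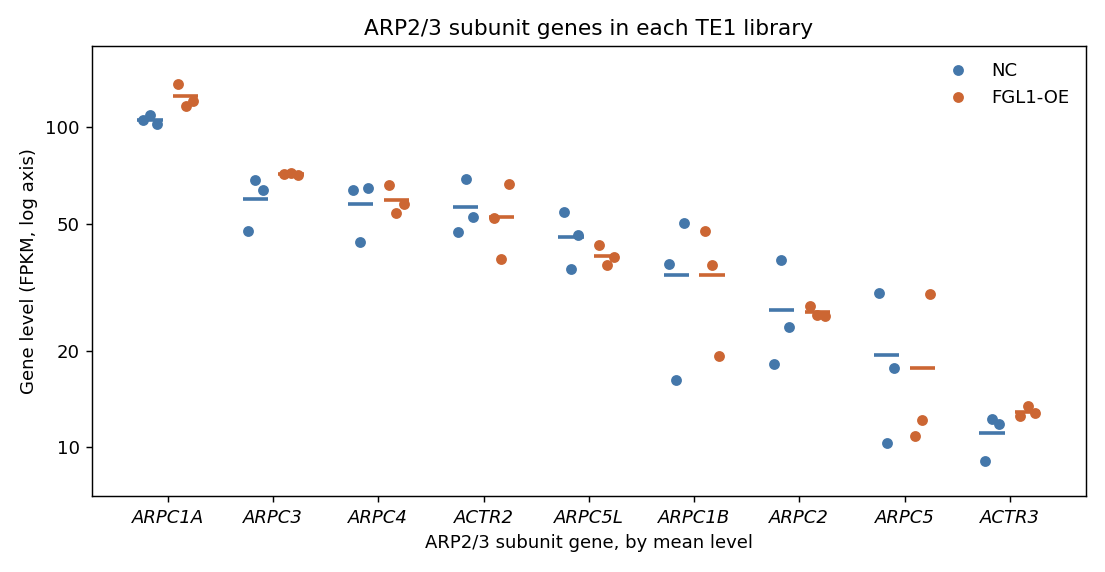
Gene level in FPKM on a log axis (y) of the 9 ARP2/3 subunit genes (x), with 1 point per library and a bar at each group's mean. The FGL1-OE points of ARPC1A, ARPC3 and ACTR3 lie above all their NC points, while ARPC1B and ARPC5 spread widely in both groups.

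No subunit gene passed the test between FGL1-OE and NC. With limma and Benjamini-Hochberg adjustment 0 of 9 genes had an adjusted p under 0.05, and every adjusted p was 1.00. At an unadjusted p under 0.05 the count was also 0 of 9, beside 1.21% of all genes tested that were higher and 0.807% that were lower in FGL1-OE. An ordinary linear model without limma's moderation gave 1 gene, ARPC1A, at that unadjusted level and none after adjustment. Leaving out NC 1 or NC 2, which correlated least with each other, the counts were again 0 of 9 at both levels, with a lowest adjusted p of 1.00 without NC 1 and 0.229 without NC 2. The difference FGL1-OE minus NC on the log2(FPKM + 1) scale was positive for 6 of 9 genes, beside 53.7% of all genes, with a median of 0.05 over the subunit genes and 0.02 over all genes tested. In 3 of 9 genes, ARPC1A, ARPC3 and ACTR3, every FGL1-OE library was above every NC library, a pattern seen in 4.09% of all genes. No subunit gene had the opposite pattern, which 3.06% of all genes showed.

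Of the 2 actin-related proteins, ACTR3 (chr2:114647537-114720173, GRCh37) was at 9.03, 12.3 and 11.8 FPKM in NC, and in FGL1-OE at 12.5, 13.4 and 12.7 FPKM. The groups did not overlap, with NC 1 lowest and the other NC libraries just under the FGL1-OE range. Its log2 difference was 0.21 (SE 0.16, 95% interval -0.16 to 0.59), and without NC 1 it was 0.09. From the sum of its listed transcripts the difference was -0.11, so its direction was not the same in both tables. ACTR2 (chr2:65454887-65498387, GRCh37) was at 47.0, 69.2 and 52.4 FPKM in NC, and in FGL1-OE at 52.2, 38.7 and 66.6 FPKM. The groups overlapped, with FGL1-OE 2 lowest and NC 2 highest, and the log2 difference was -0.11 (SE 0.24).

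ARPC1A (chr7:98923533-98963885, GRCh37), the propeller subunit with the higher level, was at 106, 109 and 102 FPKM in NC, and in FGL1-OE at 137, 117 and 121 FPKM. The lowest FGL1-OE library exceeded the highest NC library, and the ratio of the means was 1.18. This was a log2 difference of 0.24 (SE 0.14, 95% interval -0.10 to 0.57), with an unadjusted p of 0.138 by limma across all genes. Its alternative ARPC1B (chr7:98971872-98992424, GRCh37) was at 37.4, 16.2 and 50.1 FPKM in NC, and in FGL1-OE at 47.3, 37.1 and 19.2 FPKM. Each group of ARPC1B held 1 low library, NC 2 and FGL1-OE 3, and the group means were nearly equal (34.6 and 34.5 FPKM).

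Among the backbone subunits, ARPC2 (chr2:219081817-219119079, GRCh37) was at 18.2, 38.5 and 23.7 FPKM in NC, and in FGL1-OE at 27.7, 25.9 and 25.6 FPKM. All FGL1-OE libraries fell inside the NC range, and the log2 difference was 0.04 (SE 0.26, 95% interval -0.56 to 0.65). ARPC4 (chr3:9834179-9849410, GRCh37) was at 63.9, 43.9 and 64.7 FPKM in NC, and in FGL1-OE at 65.9, 54.0 and 57.6 FPKM, with a log2 difference of 0.06 (SE 0.20). ARPC3 (chr12:110872630-110888227, GRCh37), the subunit beside ARP3, was at 47.3, 68.4 and 63.8 FPKM in NC, and in FGL1-OE at 71.3, 71.9 and 70.9 FPKM. The FGL1-OE libraries of ARPC3 lay within 1 FPKM of each other and above NC, whose lowest library was NC 1. ARPC3 had the highest difference of the 9 genes, 0.27 (SE 0.18, 95% interval -0.14 to 0.68), and 0.11 without NC 1.

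Neither gene of the ARPC5 pair separated the groups. ARPC5 (chr1:183589981-183604892, GRCh37) was at 30.3, 10.3 and 17.6 FPKM in NC, and in FGL1-OE at 10.8, 12.1 and 30.04 FPKM, so that 1 library of each group, NC 1 and FGL1-OE 3, stood near 30 FPKM. Its log2 difference was -0.15 with a wide interval (95% interval -1.23 to 0.93), and it was 0.22 without NC 1 and -0.59 without FGL1-OE 3. ARPC5L (chr9:127624409-127640012, GRCh37) was at 54.5, 36.0 and 46.0 FPKM in NC, and in FGL1-OE at 42.7, 37.0 and 39.2 FPKM. It had the lowest difference of the 9 genes, -0.18 (SE 0.19), and its groups overlapped. Without NC 1 this was -0.04, and without NC 2 it was -0.33.

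**Figure D2:**
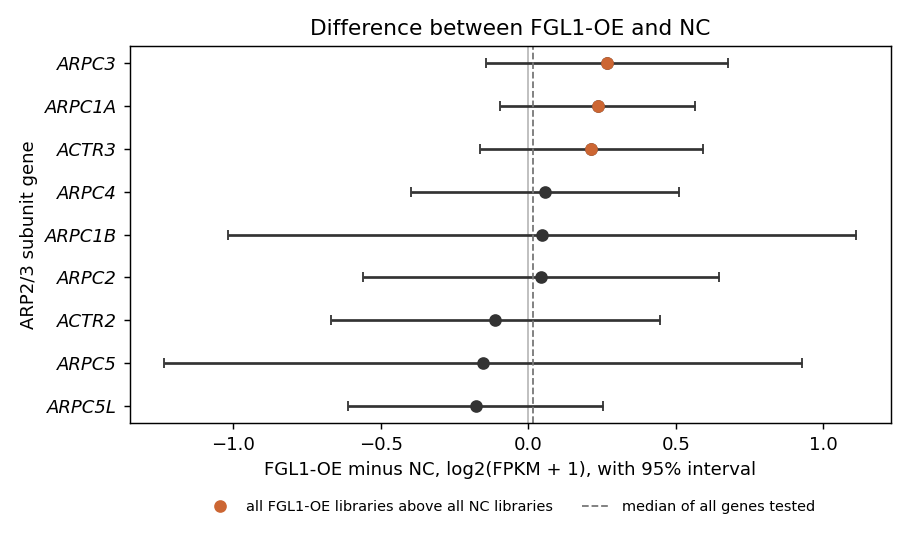
Difference FGL1-OE minus NC on the log2(FPKM + 1) scale (x) for each subunit gene (y), with the 95% interval from limma. All 9 intervals include 0, and the 3 genes whose groups do not overlap (orange) have differences from 0.21 to 0.27, beside a median of 0.02 over all genes tested (dashed line).

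The balance of the alternative subunit genes was compared as a share of gene FPKM within each pair. These are shares of RNA, and the make-up of the assembled complex was not measured. ARPC1B made up 26.1%, 12.9% and 32.9% of ARPC1A plus ARPC1B in NC and 25.7%, 24.1% and 13.7% in FGL1-OE. The means were 24.0% ± 10.2 and 21.2% ± 6.52 (SD, n = 3), a difference of -2.81 points. An exact two-sided permutation test gave p = 0.70. ARPC5L made up 64.3%, 77.8% and 72.3% of ARPC5 plus ARPC5L in NC and 79.8%, 75.3% and 56.6% in FGL1-OE, so ARPC5L was the more abundant gene of its pair in every library. The difference of the means was -0.86 points (exact two-sided permutation test, p = 0.90). With 3 libraries against 3, this test cannot give a p-value under 0.1. Neither difference was larger than the SD of its groups, and both changed sign when FGL1-OE 3 was left out, to 0.93 points for ARPC1B and 6.12 points for ARPC5L. The ARPC1B difference was also positive without NC 3 (1.64 points), and the ARPC5L difference without NC 2 (2.30 points). The lowest ARPC1B shares fell in NC 2 and FGL1-OE 3, where the overlapping gene AC004922.1, described below, was highest (15.1 and 31.5 FPKM). The part of that gene in these shares was not tested.

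At the level of transcripts, 0 of 26 subunit transcripts had an adjusted p under 0.05 (limma with Benjamini-Hochberg adjustment), against 0.0165% of the 30330 transcripts tested. At an unadjusted p under 0.05, 1 transcript was higher in FGL1-OE, ARPC2-201, and none was lower. An ordinary linear model gave 2 at that level, ARPC2-201 and ARPC1A-201, and none after adjustment. The same level was reached by 2.05% of all transcripts upward and 1.48% downward. Groups did not overlap in 3 transcripts that were higher, ARPC2-201, ARPC1A-201 and ARPC3-201 (4.65% of all transcripts), and in 1 that was lower, ARPC4-207 (3.57% of all transcripts). ARPC4-207 was at 0.0752, 0.125 and 5.58 FPKM in NC, and in FGL1-OE at 0.0527, 0.0190 and 0.0446 FPKM, so the higher NC mean rested on NC 3.

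ARPC2-201 had the highest difference of any subunit transcript, while that of its counterpart ARPC2-202 was near 0 with a wide error. ARPC2-201 (ENST00000295685, chr2:219081933-219119079, GRCh37) was at 3.23, 0.722 and 1.86 FPKM in NC, and in FGL1-OE at 61.1, 60.1 and 6.52 FPKM. FGL1-OE 1 and FGL1-OE 2 stood far above all other libraries, and FGL1-OE 3 lay nearer to NC 1 than to them. The log2(FPKM + 1) difference was 3.47 (SE 0.89, 95% interval 1.33 to 5.62). Its unadjusted p was 0.00708 and its adjusted p was 1.00 by limma with Benjamini-Hochberg adjustment, ranging from 0.27 without FGL1-OE 3 to 1.00 over the alternatives run. ARPC2-202 was at 1.97, 53.4 and 38.1 FPKM in NC, and in FGL1-OE at 39.1, 8.27 and 17.0 FPKM, a log2 difference of 0.03 (SE 1.18). ARPC2 is one of the genes shown in the study's heat map of top upregulated genes from these same libraries. Its transcript is therefore no independent evidence of a direction. The gene value of ARPC2 did not show this rise, with a log2 difference of 0.04 and all FGL1-OE libraries inside the NC range.

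Both ARPC2 transcripts carry the same coding sequence of 900 bases. They differ at the 5′ end, in the untranslated region: ARPC2-201 starts 116 bases downstream of ARPC2-202 and keeps 208 bases that ARPC2-202 removes as an intron. Of the 31-base words of ARPC2-201, 9.59% occur in no other annotated ARPC2 transcript, and of those of ARPC2-202 3.19%. No word of either occurs in another gene. The 2 tables did not give the same picture of the gene. The listed ARPC2 transcripts summed to 5.88, 54.1 and 40.7 FPKM in NC and to 100.4, 69.4 and 24.0 FPKM in FGL1-OE, while the gene value stayed between 18.2 and 38.5 FPKM. The ratio of gene value to transcript sum ran from 0.276 in FGL1-OE 1 to 3.10 in NC 1, an 11.2-fold range, against a range of 1.00-fold to 2.24-fold for the other 8 genes. From the sum, the log2 difference of ARPC2 was 1.17, where the gene table gave 0.04.

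**Figure D3:**
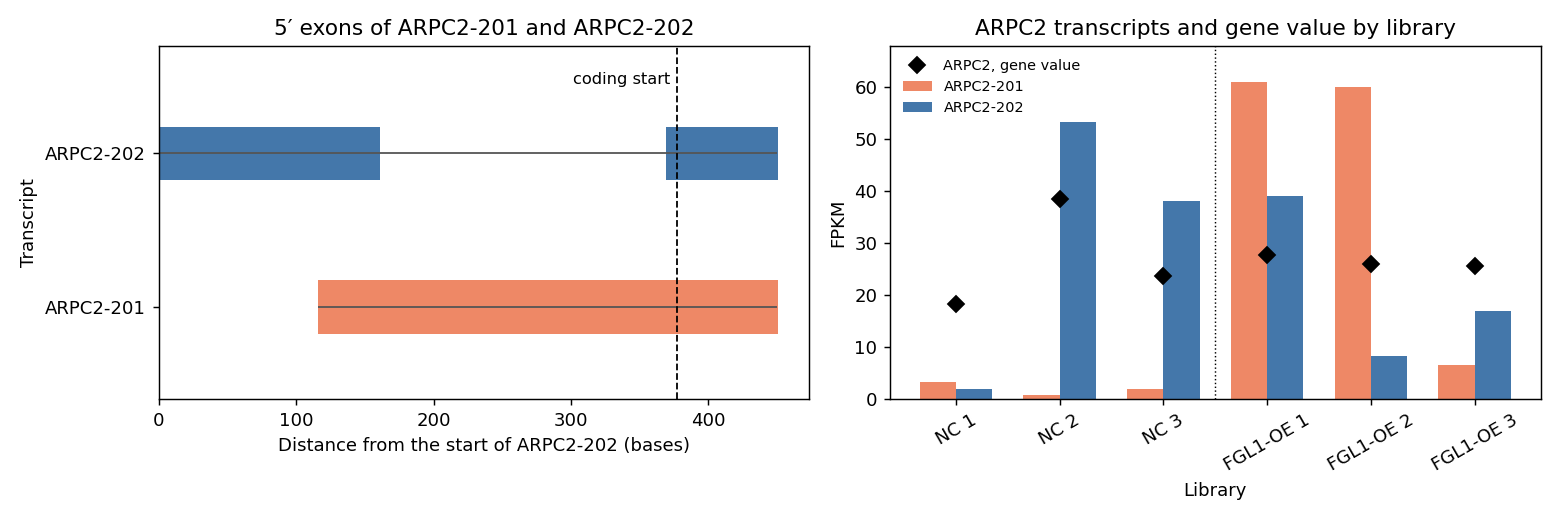
Left, exons at the 5′ end of ARPC2-201 and ARPC2-202 by distance in bases from the start of ARPC2-202 (x), with the shared coding start dashed. Right, FPKM (y) of both transcripts (bars) and of the ARPC2 gene (diamonds) in each library (x): ARPC2-201 reaches 61.1 and 60.1 FPKM in FGL1-OE 1 and FGL1-OE 2 while the gene value stays at 27.7 and 25.9 FPKM.

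As shares of the listed transcripts of ARPC2, ARPC2-202 took 33.6%, 98.6% and 93.5% in NC and 39.0%, 11.9% and 70.7% in FGL1-OE. The means differed by -34.7 points, FGL1-OE minus NC, and an exact two-sided permutation test gave p = 0.30. The difference was -55.5 points without NC 1, -23.0 points without NC 2 and -20.4 points without FGL1-OE 2. ARPC2-201, chosen because its share gained most, went from 20.3% ± 30.1 to 58.2% ± 29.8 (SD, n = 3), a gain of 37.9 points. NC 1 did not look like the other NC libraries here. ARPC2-201 held 55.0% of the listed ARPC2 transcripts in NC 1, and 1.33% and 4.56% in NC 2 and NC 3. In FPKM, ARPC2-201 was low in NC 1 to NC 3 (3.23, 0.722 and 1.86). What differed was ARPC2-202, at 1.97 FPKM in NC 1 against 53.4 and 38.1 FPKM in NC 2 and NC 3. The listed transcripts summed to 5.88 FPKM in NC 1, where the gene value was 18.2 FPKM. At least 1 transcript gained 25 points or more of share in 2 of the 8 subunit genes with several listed transcripts, ARPC2 and ARPC1B, and in 13.9% of all 8017 such genes.

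In the deposited values, the main listed transcript of ARPC1B differed between libraries inside each group. How reads were divided between its transcripts was not tested, so a switch of isoform is not shown. ARPC1B-211 held 72.0%, 3.16% and 84.1% of the gene in NC and 71.4%, 0% and 0.213% in FGL1-OE, and ARPC1B-201 held 19.0%, 62.8% and 7.90% in NC and 14.96%, 84.2% and 78.5% in FGL1-OE. Thus NC 2, FGL1-OE 2 and FGL1-OE 3 had ARPC1B-201 as the main form, and the other libraries had ARPC1B-211. The share of ARPC1B-211 differed by -29.2 points, FGL1-OE minus NC (exact two-sided permutation test, p = 0.20). The difference was -54.2 points without NC 2 and -53.0 points without FGL1-OE 1. Leaving out NC 3 gave -13.7 points, FGL1-OE 2 gave -17.3 points and FGL1-OE 3 gave -17.4 points. These transcripts share the coding sequence of 1116 bases, ARPC1B-211 carries other 5′ exons, and only 2.14% of the 31-base words of ARPC1B-211 and 0% of those of ARPC1B-201 occur in no other ARPC1B transcript. ARPC1B-209, the remaining transcript above 5% of the gene, held 3.83% ± 1.65 in NC and 6.82% ± 1.57 in FGL1-OE (SD, n = 3).

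The coding variants of ARPC5 and ACTR3 differed more between the NC libraries than between the groups. ARPC5-201, the form with the 9 additional coding bases printed above, held 64.5%, 40.8% and 58.0% of ARPC5 in NC and 41.1%, 43.7% and 41.0% in FGL1-OE. NC 2 lay at the FGL1-OE level, and the difference of -12.5 points had p = 0.40 by an exact two-sided permutation test. It was -7.45 points without NC 1 and -19.3 points without NC 2. Of the words of ARPC5-201, 3.80% are found in no other ARPC5 transcript, against 72.0% of those of ARPC5-202. ACTR3-203, which lacks the 56-base exon, was at 22.3, 1.12 and 11.2 FPKM in NC, and in FGL1-OE at 6.78, 6.54 and 2.74 FPKM. ACTR3-201 therefore held 38.8%, 94.9% and 63.7% in NC and 75.5%, 77.6% and 88.8% in FGL1-OE (exact two-sided permutation test, p = 0.50). This difference of 14.8 points was 1.32 points without NC 1 and 29.4 points without NC 2. In NC 1, ACTR3-203 alone (22.3 FPKM) was above the value of the whole gene (9.03 FPKM). The ratio of gene value to transcript sum was 0.248 in NC 1 and 0.555 in NC 2, so the tables differed here too. All 566 exonic bases of ACTR3-203 lie within ACTR3-201, and 4.85% of its words are found in no other ACTR3 transcript, against 61.5% of the words of ACTR3-201.

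ARPC5L-202 and ARPC5L-201, which code for the same 459 bases, were near even in 5 of the 6 libraries. All 1325 exonic bases of ARPC5L-201 lie within ARPC5L-202. Of its words 0% are found in no other ARPC5L transcript, against 47.7% of those of ARPC5L-202. ARPC5L-202 held 89.0%, 40.9% and 40.3% in NC and 41.9%, 51.7% and 49.2% in FGL1-OE, with NC 1 alone apart (exact two-sided permutation test, p = 1.0). The other members had 1 dominant form in every library: ACTR2-201 held 93.8% to 99.3%, ARPC3-201 99.3% to 99.8% and ARPC4-201 90.9% to 97.3%, and ARPC1A had ARPC1A-201 as its only listed transcript. The share of ARPC4-201 did not overlap between the groups, at 95.9%, 96.9% and 90.9% in NC and 97.3%, 97.2% and 97.3% in FGL1-OE. That difference of 2.71 points had p = 0.1, the smallest that the exact permutation test can give, and was 0.86 points without NC 3. How often such shares fail to overlap over all genes was not computed, so whether this is unusual cannot be told. The share of the main transcript ranged over 50 points or more within a group for 3 of the 8 subunit genes, ACTR3, ARPC1B and ARPC2, and for 31.8% of all genes with several listed transcripts. For each of the 8 genes except ARPC2, the mean distance in isoform shares between libraries of different groups was smaller than that within at least 1 of the groups. For ARPC2 it was 46.2 points between groups, 43.4 points within NC and 40.1 points within FGL1-OE.

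**Figure D4:**
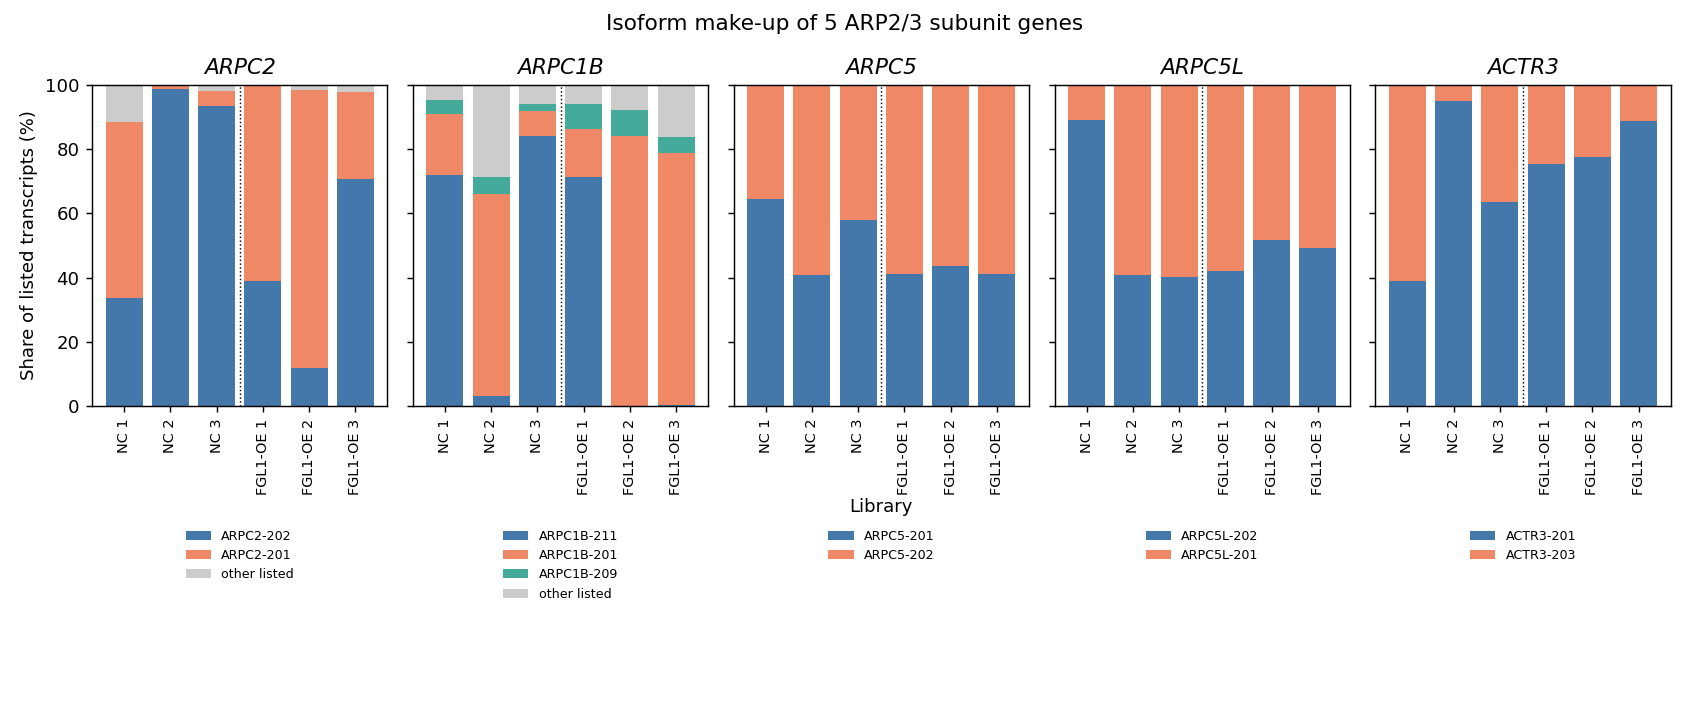
Share in percent of each gene's listed transcripts (y) in each library (x) for 5 subunit genes, with NC left and FGL1-OE right of the dotted line. The main form of ARPC1B changes within both groups, ARPC2-202 ranges from 33.6% to 98.6% within NC, and NC 1 stands apart in ARPC5L.

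The low libraries of ARPC1B were high in a gene that overlaps it. AC004922.1 (chr7:98923502-98992276, GRCh37) spans ARPC1A and ARPC1B on the same strand, and 76.1% of the 31-base words of ARPC1A-201 and 80.6% of those of ARPC1B-201 also occur in its transcripts. AC004922.1 was at 9.29, 15.1 and 2.59 FPKM in NC, and in FGL1-OE at 1.51, 4.77 and 31.5 FPKM. Over the 6 libraries it ran opposite to ARPC1B (Pearson's r = -0.89 on log2(FPKM + 1), Spearman's rho = -0.83, n = 6 libraries that share 1 quantification of the same reads). Their sum was 46.7, 31.3 and 52.7 FPKM in NC and 48.8, 41.9 and 50.7 FPKM in FGL1-OE, with a coefficient of variation over the libraries of 17.2%, against 40.7% for ARPC1B alone. How reads were divided between these genes was not tested. ARPC1A plus AC004922.1 was at 115, 124 and 105 FPKM in NC, and in FGL1-OE at 138, 122 and 153 FPKM. The groups of this sum overlapped, unlike those of ARPC1A alone. Its means were still apart, at 115 FPKM in NC and 138 FPKM in FGL1-OE, beside 106 and 125 FPKM for ARPC1A alone. Its coefficient of variation over the libraries was 13.5%, against 10.95% for ARPC1A alone.

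**Figure D5:**
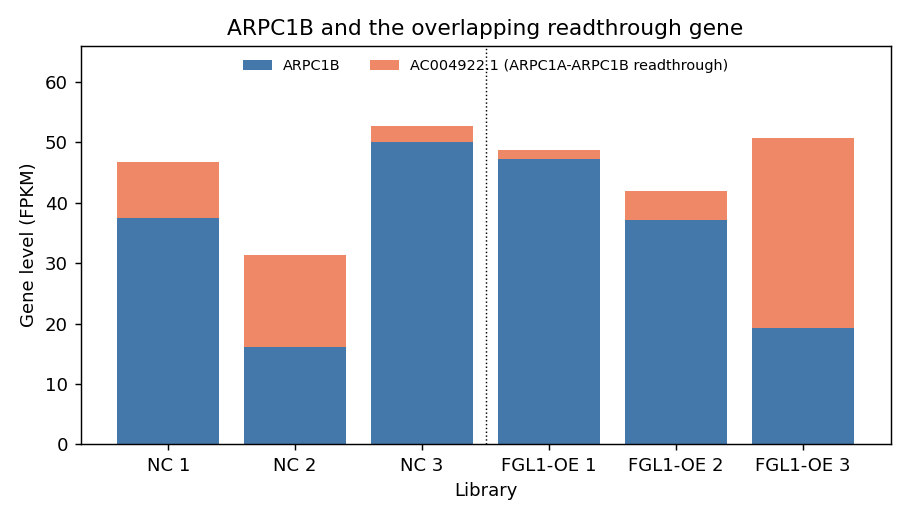
Gene level in FPKM (y) of ARPC1B and, stacked on it, of the readthrough gene AC004922.1 in each library (x). ARPC1B is lowest in NC 2 and FGL1-OE 3, where AC004922.1 is highest at 15.1 and 31.5 FPKM.

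Other subunit genes share sequence with loci of their own. Words of ARPC3-201 occur to 37.7% in other annotated genes, spread over 6 of them, and those of ACTR2-201 to 15.4%. ARPC4-201 shares 20.02% of its words with the readthrough gene ARPC4-TTLL3, which was at 0.239 to 1.14 FPKM. ACTR3B, a close paralog of ACTR3, was at 1.65, 2.40 and 1.65 FPKM in NC, and in FGL1-OE at 1.87, 2.12 and 2.07 FPKM, and ACTR3C was at 0.241 to 0.912 FPKM.

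Regulators and relatives of the complex were compared in the same fit. Of 66 genes in lists of related ARP3 and ARPC4 loci, nucleation promoting factors, their partners, upstream GTPases, inhibitors, actins with their capping and turnover factors, and unbranched nucleators, 58 were listed and 57 were tested. None had an adjusted p under 0.05 by limma with Benjamini-Hochberg adjustment. At an unadjusted p under 0.05, 0 were higher and 1, ARPIN, was lower in FGL1-OE, beside 0.807% of all genes lower at that level. Groups did not overlap in 2 of them, ARPIN and JMY, both lower, beside 3.06% of all genes. The median log2 difference over these 57 genes was 0.07, beside 0.02 over all genes.

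ARPIN, an inhibitor that competes with WAVE for the ARP2/3 complex, was at 6.80, 6.90 and 6.78 FPKM in NC, and in FGL1-OE at 5.02, 4.93 and 4.60 FPKM. Both groups were tight and well apart, with a log2 difference of -0.42 (SE 0.13). Its unadjusted p was 0.0147 by limma, and its adjusted p was 1.00 with Benjamini-Hochberg adjustment. C15orf38-AP3S2, a readthrough gene that joins ARPIN (C15orf38) to its neighbour AP3S2 and was looked up after the values of ARPIN were seen, was at 1.88, 0.765 and 2.56 FPKM in NC, and in FGL1-OE at 1.18, 14.0 and 14.1 FPKM. AP3S2 was at 7.39, 7.50 and 7.48 FPKM in NC, and in FGL1-OE at 7.71, 3.43 and 3.40 FPKM. The readthrough gene and AP3S2 thus moved in FGL1-OE 2 and FGL1-OE 3 only, whereas ARPIN was lower in FGL1-OE 1 as well, and the part of the readthrough in the ARPIN values was not tested. JMY, a nucleation promoting factor that also binds p300, was at 0.833, 1.16 and 0.933 FPKM in NC, and in FGL1-OE at 0.718, 0.812 and 0.832 FPKM.

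The most abundant regulator of each list did not separate the groups. BRK1, the small WAVE complex subunit, was at 86.4, 150.1 and 111 FPKM in NC, and in FGL1-OE at 116, 118 and 122 FPKM. RAC1, the GTPase that activates WAVE, was at 83.0, 164 and 141 FPKM in NC, and in FGL1-OE at 150.1, 157 and 152 FPKM, with NC 1 low as in ARPC3. WASF2, the most abundant WASP family member, averaged 21.1 FPKM in NC and 21.7 FPKM in FGL1-OE, and CTTN (cortactin, which stabilises branches) averaged 42.0 and 39.9 FPKM. The group means of CORO1B, a coronin that promotes debranching, were 23.1 and 22.3 FPKM, those of ACTB 565 and 582 FPKM, those of the formin DIAPH1 34.5 and 37.0 FPKM, and those of WASHC2C of the endosomal WASH complex 19.1 and 20.5 FPKM.

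The mean log2(FPKM + 1) of the 9 subunit genes was 5.28, 5.15 and 5.36 in NC and 5.36, 5.22 and 5.35 in FGL1-OE, lowest in NC 2 and FGL1-OE 2. Of all genes tested, the 5 whose values over the 6 libraries were most like this profile were EDC4, COPZ2, KIAA1671, BHLHA15 and TIMM22, with Pearson's r from 0.9754 for TIMM22 to 0.998 for EDC4. EDC4, a scaffold of mRNA decapping, was at 6.86, 5.31 and 7.88 FPKM in NC, and in FGL1-OE at 8.05, 6.22 and 7.77 FPKM. With 6 libraries and 12017 genes searched, these values describe the libraries only.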

How the data were processed

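The authors deposited FPKM values of 6 TE1 libraries, sequenced after oligo(dT) enrichment on an Illumina NovaSeq, for protein-coding genes and transcripts. The submitters' processing notes name StringTie and GRCh37. The aligner and all versions are not given in the sources used here. The authors' own comparison columns (group means of log2(FPKM + 1), log2 fold change, fold change, p and q) were not used. Columns without a known sample numbered 0.

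All features that averaged 0.5 FPKM or more over the libraries, 12017 genes and 30330 transcripts, were fitted with limma 3.58.1 in R 4.3.3 (lmFit, eBayes) on log2(FPKM + 1), a pseudocount of 1, without scaling or covariates. A fold change on this scale understates the change of low genes. P-values were adjusted over each whole table by the Benjamini-Hochberg method, with a threshold of 0.05. Shares and single values were compared by exact permutation tests in Python 3.11.15. The code was tested on simulated data. Library depth is unknown: low FPKM values showed no steps of whole reads (strongest period 0.0897 to 0.110 on a scale from 0 to 1), so no counting intervals are given. Coordinates of genes and transcripts are those of the tables (GRCh37). Transcript structure and words of 31 bases came from GENCODE on GRCh38, matched by identifier.

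The members, the lists of regulators and the tests were chosen with earlier results of these data known. Named were all 9 subunit genes and FGL1, transcripts with a mean share of at least 5% in either group, the 5 genes most like the mean of the members, and list genes with an unadjusted p under 0.05 or the highest mean of their list. Genes named for a count of 5 or fewer, the readthrough genes, marker genes and ARPC4-207 were chosen after their values were seen. Alternatives were a pseudocount of 0.1, no filter, quantile normalization, scaling each library to TPM, a replicate block, an ordinary linear model, sums of transcripts, a minimum of 1 FPKM for shares, and leaving out each library.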

Additional observations from a re-analysis of the deposited data

How the results depend on the processing

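The counts of 0 subunit genes and 0 subunit transcripts with an adjusted p under 0.05 held in every alternative run. The lowest adjusted p was 0.229 for genes, without NC 2, and 0.271 for transcripts, without FGL1-OE 3. The median log2 difference of the 9 genes was 0.05 and was -0.019 from sums of transcripts, where the cause was not tested. Leaving out a library gave 0.011 to 0.15. Whether the numbers 1, 2 and 3 of the labels pair the libraries could not be decided. The correlations of same-numbered deviations from the group means were 0.345, 0.282 and -0.061. NC 1 and NC 2 correlated best with the FGL1-OE library of the same number. Their other values were -0.273 and -0.117 for NC 1, and -0.370 and 0.136 for NC 2. NC 3 correlated best with FGL1-OE 1 (0.111). With the replicate block the median stayed at 0.05, the share differences at -2.81 and -0.86 points (sign-flip p = 0.75 for both, an exact permutation test whose lowest p is 0.25), and no call changed. The ARPC1B share ran from -8.34 to 1.64 points over the libraries left out. The ARPC5L share ran from -5.48 to 6.12 points, and was 3.03 points from sums of transcripts. Only 3 of 9 genes (ARPC1A, ARPC3, ARPC5L) kept their direction in every alternative. From sums of transcripts ACTR3 was at -0.11 and ARPC1B at -0.019. Leaving out each library, log2 differences ran from -0.41 to 0.41 for ARPC1B, -0.30 to 0.087 for ACTR2, -0.59 to 0.22 for ARPC5, -0.19 to 0.33 for ARPC2 and -0.12 to 0.15 for ARPC4. Among named transcripts, 8 of 15 kept their direction in every alternative. The others ran from -0.32 to 0.086 (ACTR2-201), -1.49 to 0.25 (ACTR3-203), -1.29 to 0.81 (ARPC2-202, -0.019 with quantile normalization), -0.10 to 0.17 (ARPC4-201), -0.21 to 0.20 (ARPC5-202), -0.63 to 0.11 (ARPC5L-202) and -0.29 to 0.87 (ARPC5L-201). Main shares of 5 of 8 genes kept their direction, and the others ran from -2.60 to 0.051 points (ACTR2-201), -0.022 to 0.24 points (ARPC3-201) and -17.4 to 7.01 points (ARPC5L-202). Without NC 2, ARPC5-201 and ACTR3-203 were lower at an unadjusted p under 0.05, without FGL1-OE 1 ARPC1B-201 was higher and ARPC1B-211 lower, and without FGL1-OE 3 ARPC1B-209 was higher. Over all genes, leaving out NC 2 raised the number with an unadjusted p under 0.05 from 242 to 2610. As library depth is unknown, the precision of low values could not be set.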
